A study of Mus musculus with 37 samples.

Results

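Ribosome biogenesis, Myc and polyamine synthesis were examined through 37 genes, which were chosen by name with earlier results of these data known. The list was thus not fixed independently of the data, which limits what its shares of called genes beside those of all genes can show. The genes make up 37 of the 53700 genes counted in each library. They are Myc, 31 genes whose products build ribosomal subunits in the nucleolus, the chaperone gene Hgh1 and 4 genes of polyamine synthesis. Bulk RNA-seq counts came from 37 libraries of uterine natural killer (uNK) cells of mice at gestation day 9.5 to 10.5. The WT mice were of the C57BL6 strain and gave 9 uneducated libraries (Ly49C/I-negative, NKG2A-negative), 9 NKG2A+ libraries (Ly49C/I-negative) and 6 Ly49C/I+ libraries (NKG2A-negative). The NKG2A KO mice, on the same background, gave 8 uneducated and 5 Ly49C/I+ libraries. The gate for all groups was live CD45+ NKp46+ cells without CD3, CD4, CD8 or high CD11b. Cells with both receptors were not collected, so the NKG2A+ and Ly49C/I+ groups hold single-positive cells. Neither the age of the mice nor any pooling of their cells is stated. All 37 genes passed the filter of at least 5 CPM (read counts scaled to the size of the library) in a share of at least 0.5 of the libraries in every comparison.

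A ribosome is assembled mostly in the nucleolus. RNA polymerase I transcribes the precursor of ribosomal RNA there, small nucleolar ribonucleoproteins (snoRNPs) modify it, and a relay of assembly factors cuts and folds it into a small and a large subunit. MYC, a transcription factor that binds DNA as a dimer with MAX, is known to drive many of these genes in growing cells, and ornithine decarboxylase and spermidine synthase are classical MYC targets. Polyamines are small charged molecules that bind RNA, and spermidine is used to make the hypusine residue of the translation factor eIF5A. NK cells are said to be educated when an inhibitory receptor such as Ly49C/I or CD94/NKG2A recognises self MHC class I.

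The libraries held between 13287163 and 18875033 reads on genes. Ncr1, which encodes NKp46, lay between 463 and 1023 CPM over the 37 libraries. Klrc1, which encodes NKG2A, was between 495 and 753 CPM in NKG2A+ libraries and at most 13.9 CPM in the other 28 libraries. The KO libraries were compared with WT cells that were also sorted as NKG2A-negative, so Klrc1 does not check the genotype. Klra9, which encodes Ly49I, was between 452 and 1137 CPM in Ly49C/I+ libraries and at most 124 CPM elsewhere. WT uneducated library 5 stood apart, with 1.12% of its reads on mitochondrial genes against at most 0.542% in the other libraries. Results are also given without the libraries numbered 5, meaning WT uneducated library 5 and, where NKG2A+ cells are compared, NKG2A+ library 5.

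The DNA in front of the genes is shown because MYC with MAX is known to bind the E-box CACGTG. Windows of 300 bases, from 250 before to 50 after the transcription start in RefSeq (GRCm38.p6), were found for 29 of the 37 genes. Bop1, Fbl, Hgh1, Myc, Npm1, Rrp12, Srm and Wdr55 had no entry. CACGTG, which reads the same on both strands, stood in the windows of 6 of the 29 genes (20.7%), namely Nop2, Pes1, Sms, Tsr1, Utp20 and Wdr43, and in those of 12.4% of the 7437 tested genes with a window and of 8.09% of all 27025 genes. The ETS core CCGGAAG, sought on both strands, stood in 10 of the 29 (34.5%), in 23.9% of the tested genes and in 9.93% of all genes. CGCATGCG, the centre of the NRF1 motif, also sought on both strands, stood in 1 of the 29, Nob1 (3.45%), and in 5.10% of tested genes. Of the 6 genes with CACGTG, Nop2 and Wdr43 were called lower in Ly49C/I+ cells of KO mice, while Tsr1, Pes1, Sms and Utp20 were not. Only in Nop2 and Sms did it lie before the start. A match is only a string of letters and was not tested as a binding site. The 120 bases just before the start are printed for Nop2, Nolc1, Gar1 and Dkc1, which were lower in Ly49C/I+ cells of KO mice and have no annotated exon there, with CACGTG and the ETS core (either strand) in capitals.
Nop2, chr6:125131763-125131882, + strand: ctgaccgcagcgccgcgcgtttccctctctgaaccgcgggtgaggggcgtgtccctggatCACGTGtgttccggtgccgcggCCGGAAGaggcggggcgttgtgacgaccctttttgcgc
Nolc1, chr19:46075727-46075846, + strand: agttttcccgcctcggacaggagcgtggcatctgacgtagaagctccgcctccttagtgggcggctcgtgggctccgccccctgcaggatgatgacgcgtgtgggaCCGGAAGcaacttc
Gar1, chr3:129831397-129831516, - strand: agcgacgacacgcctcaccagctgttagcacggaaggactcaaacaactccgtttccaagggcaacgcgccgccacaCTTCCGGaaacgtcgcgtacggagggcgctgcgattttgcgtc
Dkc1, chrX:75095734-75095853, + strand: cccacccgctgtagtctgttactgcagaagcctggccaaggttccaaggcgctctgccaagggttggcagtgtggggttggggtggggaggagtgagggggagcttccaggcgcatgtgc
Nop2 held both motifs close to its start, Nolc1 and Gar1 held the ETS core, and Dkc1 held neither in this stretch. These genes are examples picked from the called ones, so how many of them hold a motif is not a result.

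The 37 genes spanned a wide range of levels in uNK cells. Per kilobase of exon, averaged over the 5 group means, Npm1 was highest at 225 CPM per kb, followed by Nhp2 at 152, Odc1 at 124, Ncl at 114, Myc at 102.5 and Srm at 100.1 CPM per kb. The lowest were Polr1a at 2.74 and Utp20 at 2.53 CPM per kb. The nucleolar factors nucleophosmin (Npm1) and nucleolin (Ncl) thus stood beside Myc and the polyamine enzymes Odc1 and Srm among the best expressed of the set. The polyamine enzymes Amd1 and Sms were at 9.35 and 5.74 CPM per kb. Wdr12, a large subunit factor, was just above Polr1a and Utp20 at 3.37 CPM per kb. Exon length was that of all annotated exons of a gene, 10188 bases for Ncl and 2665 for Npm1, so these ranks also depend on the annotation.

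The 31 nucleolar genes together were highest in uneducated cells of both genotypes. Their summed level ranged from 4394 to 5927 CPM (median 5380) in WT uneducated libraries, from 3683 to 4882 CPM (median 4470) in NKG2A+ libraries and from 3698 to 4400 CPM (median 4334) in WT Ly49C/I+ libraries. In KO mice the uneducated libraries ranged from 4595 to 5519 CPM (median 5082), and the 5 Ly49C/I+ libraries were at 4024, 3974, 3799, 3659 and 4071 CPM. The KO groups did not overlap. In WT mice uneducated libraries 6, 7 and 9, at 4394, 4444 and 4476 CPM, lay within the NKG2A+ range. They lay below the 6 other uneducated libraries, which began at 5250 CPM. Of the uneducated libraries only library 6 lay within the WT Ly49C/I+ range, which ended at 4400 CPM. CPM are shares of a library, and in these bulk samples less RNA per cell and fewer cells that express a gene cannot be told apart.

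**Figure D1:**
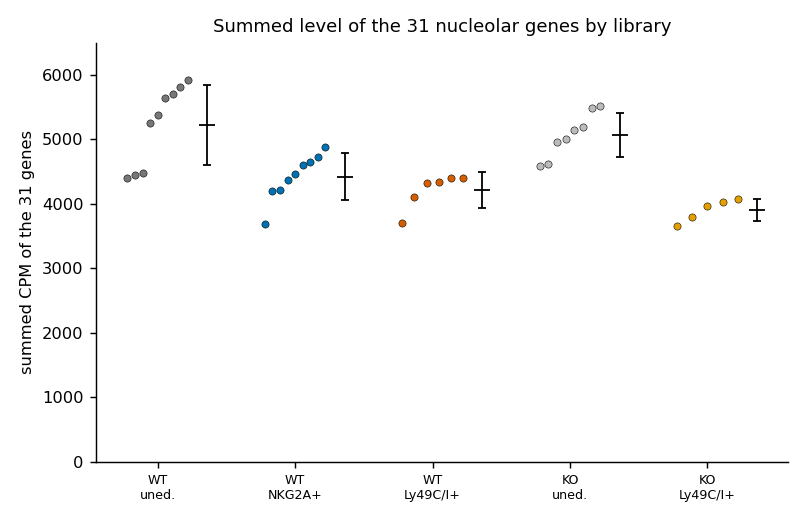
Summed CPM of the 31 nucleolar genes in each of the 37 libraries by group (points, sorted by value within a group; bars, mean ± SD beside the points; n = 9, 9, 6, 8 and 5). The 5 KO Ly49C/I+ libraries, between 3659 and 4071 CPM, lie below all 8 KO uneducated libraries, which start at 4595 CPM, while the WT groups overlap.

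In NKG2A+ cells of WT mice, 6 of the 37 genes were lower than in uneducated cells and none was higher. They were Nhp2, Srm, Nolc1, Dkc1, Npm1 and Rrp1b, that is 2 H/ACA snoRNP proteins, 2 nucleolar organisers, a large subunit factor and spermidine synthase. Of all 9339 genes tested with edgeR's quasi-likelihood test, 7.56% were lower and 7.47% higher at an adjusted p under 0.05. The 6 lower members were 16.2% of the 37. The median log2 fold change was -0.18 over the 37 genes and 0.01 over all genes, and 30 of the 37 had a negative value, against 48.6% of all genes. None of the 37 genes had groups without overlap, a pattern held by 0.835% of all genes in the lower direction. Without the libraries numbered 5, 4 genes were called, Npm1, Dkc1 and Rrp1b not among them. The count was 3 without WT uneducated library 1 or 3 or without NKG2A+ library 7, it was 2 without NKG2A+ library 6, and it was 11 without WT uneducated library 6.

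In Ly49C/I+ cells of WT mice, 8 genes were lower than in uneducated cells and 1, Amd1, was higher. The lower genes were Dkc1, Npm1, Nop16, Ncl, Srm, Polr1a, Gar1 and Nolc1. Of 9292 genes tested, 5.05% were lower and 4.25% higher, while 21.6% of the 37 genes were lower. The median log2 fold change was -0.23, against -0.00013 over all genes, and 28 of the 37 values were negative. Dkc1 and Nolc1 had groups without overlap, that is 5.41% of the members, against 1.4% of all genes in the lower direction. The count of 9 stayed at 9 without the libraries numbered 5. It was 4 without Ly49C/I+ library 7, and 5 without Ly49C/I+ library 5 or 8. The comparison shares its 9 uneducated libraries with the one of NKG2A+ cells.

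In KO mice, whose libraries enter neither WT comparison, 18 of the 37 genes were lower in Ly49C/I+ cells and none was higher. Of 9299 genes tested, 8.99% were lower and 7.34% higher, and among the 37 genes 48.6% were lower. The 18 were Srm, Hgh1 and 16 nucleolar genes from every class but RNA polymerase I. The median log2 fold change was -0.42, against 0.02 over all genes, and 31 values were negative. For 10 of the genes (27.0%) every Ly49C/I+ library lay below every uneducated library, against 4.12% of all genes tested. Of the 8 genes lower in Ly49C/I+ cells of WT mice, 7 were among the 18 in KO mice, all but Polr1a. The same share over all genes tested was not counted, so this overlap is not read as a result about these genes. Leaving out single libraries gave between 14 and 19 calls. Of the 18 calls, 7 held in all 8 other settings. The KO Ly49C/I+ libraries are numbered 4 to 8, so uneducated libraries 1, 2 and 3 have no Ly49C/I+ library of their number. Uneducated libraries 2 and 3 had the highest summed nucleolar levels of KO mice, at 5483 and 5519 CPM. With the replicate number as a block, the calls of Gar1, Fbl, Nop58, Wdr43, Bop1, Wdr12 and Mrto4 were lost. The part of the numbering in the count was not tested otherwise.

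**Figure D2:**
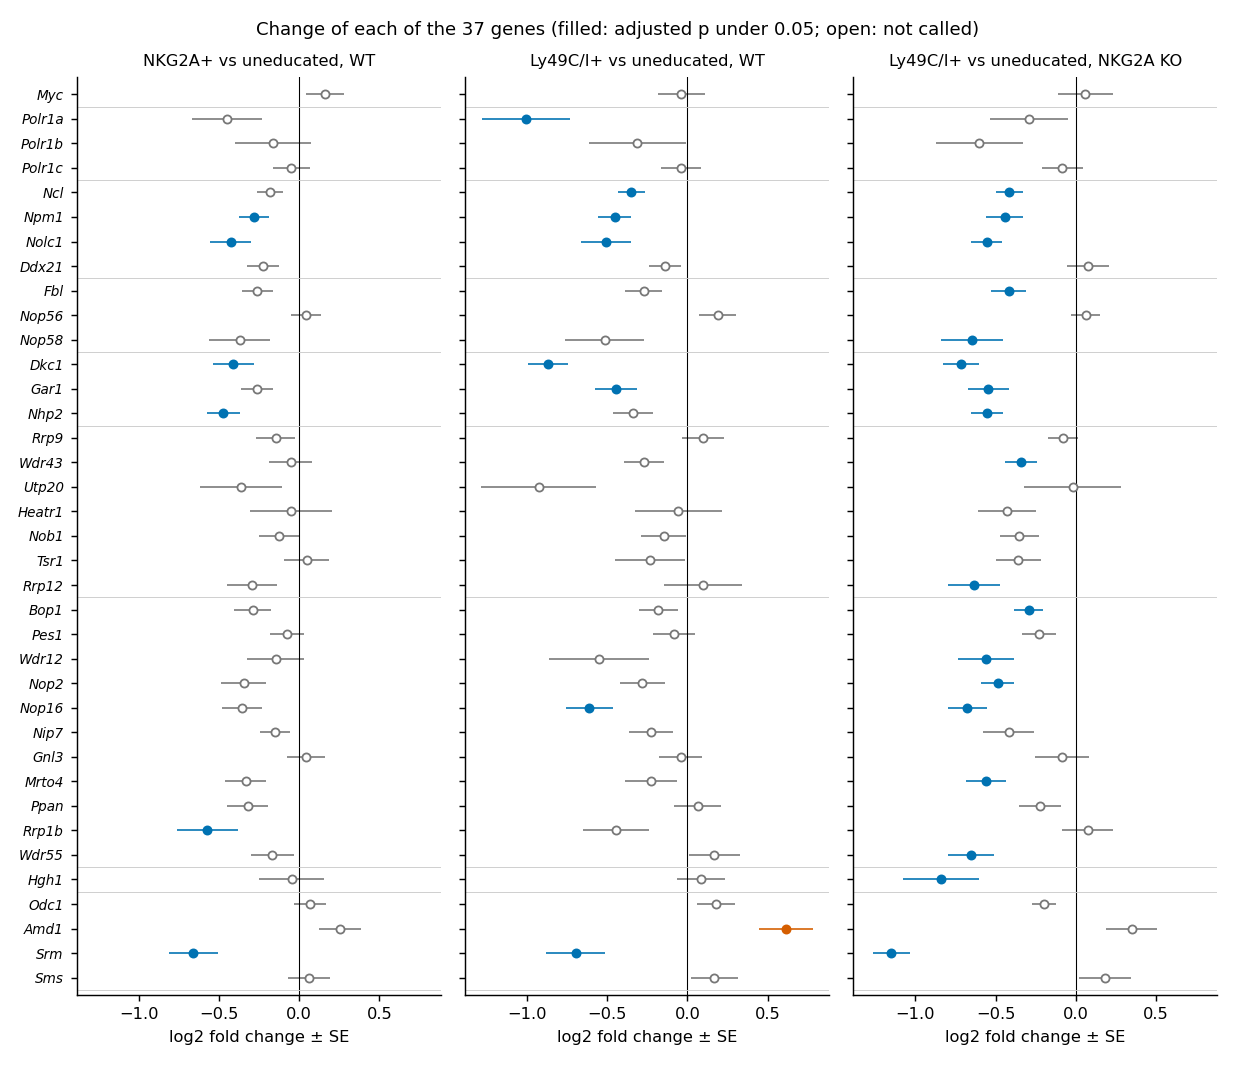
Log2 fold change ± SE of the 37 genes, ordered by role from Myc to polyamine synthesis (grey lines part the roles), in NKG2A+ against uneducated WT cells, Ly49C/I+ against uneducated WT cells and Ly49C/I+ against uneducated KO cells. Blue filled points are called lower (6, 8 and 18 genes), the orange filled point is called higher (Amd1), and open points, Myc among them in all panels, are not called.

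Myc itself was not called in any comparison. Its gene lies at chr15:61985391-61990374 (GRCm38, + strand). Its level ranged from 185 to 327 CPM (median 241) in WT uneducated, from 217 to 322 CPM (median 299) in NKG2A+ and from 188 to 320 CPM (median 227) in WT Ly49C/I+ libraries. In KO mice it ranged from 183 to 433 CPM (median 295) in uneducated libraries and was 407, 268, 351, 271.5 and 264 CPM in Ly49C/I+ libraries. All 5 groups overlapped widely. The log2 fold change was 0.16 ± 0.12 (SE, adjusted p = 0.40) in NKG2A+ cells, -0.04 ± 0.15 (adjusted p = 0.91) in Ly49C/I+ cells of WT mice and 0.06 ± 0.17 (adjusted p = 0.85) in those of KO mice. The latter 2 changed sign with the processing or with single libraries, as for WT Ly49C/I+ cells without the libraries numbered 5 (0.04).

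RNA polymerase I was represented by its largest subunits, Polr1a and Polr1b, and by Polr1c, which RNA polymerase III also uses. Polr1a ranged from 29.8 to 89.7 CPM (median 43.8) in WT uneducated libraries and from 9.68 to 30.5 CPM (median 23.5) in WT Ly49C/I+ libraries. It fell by 1.01 on the log2 scale in Ly49C/I+ cells (SE 0.27, adjusted p = 0.028), the lowest value of the 37 genes in that comparison. Those groups overlapped only slightly, but the call was lost (adjusted p up to 0.064) without WT uneducated library 2 or without Ly49C/I+ library 4, 5, 7 or 8. In KO mice its log2 fold change was -0.29 ± 0.24 (adjusted p = 0.45). Polr1b and Polr1c passed the test in no comparison.

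The nucleolar organisers are abundant proteins that give the nucleolus its structure and carry pre-ribosomes. Npm1 (nucleophosmin) ranged from 543 to 869 CPM (median 759.8) in WT uneducated, from 442 to 703 CPM (median 589) in NKG2A+ and from 449.6 to 556 CPM (median 532) in WT Ly49C/I+ libraries. In KO mice it ranged from 517 to 789.7 CPM (median 663) in uneducated libraries and was 429, 441, 483, 468 and 626 CPM in Ly49C/I+ libraries. Its log2 fold change was -0.28 ± 0.09 (adjusted p = 0.043) in NKG2A+ cells, -0.45 ± 0.11 (adjusted p = 0.012) in WT Ly49C/I+ cells and -0.44 ± 0.11 (adjusted p = 0.014) in KO Ly49C/I+ cells. The call in NKG2A+ cells was kept in only 4 of 18 fits that left out a library (adjusted p up to 0.084), those without WT uneducated library 6, 7 or 9 or NKG2A+ library 4. Of its 50-base stretches 24.3% occur in transcripts of other genes.

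Nolc1, a nucleolar scaffold that escorts snoRNPs and RNA polymerase I, ranged from 217 to 431 CPM (median 228) in WT uneducated, from 142 to 228 CPM (median 197) in NKG2A+ and from 142 to 206 CPM (median 187) in WT Ly49C/I+ libraries. It ranged from 208 to 261 CPM (median 238) in KO uneducated libraries and was 161, 198, 155, 129 and 157 CPM in KO Ly49C/I+ libraries. Neither Ly49C/I+ group overlapped its uneducated group. The log2 fold change was -0.43 ± 0.13 (adjusted p = 0.025) in NKG2A+, -0.51 ± 0.15 (adjusted p = 0.045) in WT Ly49C/I+ and -0.56 ± 0.10 (adjusted p = 0.0014) in KO Ly49C/I+ cells. The highest value, 431 CPM, was that of WT uneducated library 5, and without the libraries numbered 5 the WT values were -0.30 and -0.36. The call in NKG2A+ cells was lost without NKG2A+ library 6 (adjusted p = 0.051), and that in WT Ly49C/I+ cells was kept in 4 of 15 fits, those without WT uneducated library 5, 6, 7 or 9 (adjusted p up to 0.13 in the others).

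Ncl (nucleolin), which binds pre-ribosomal RNA, ranged from 1103 to 1492 CPM (median 1370) in WT uneducated and from 962 to 1146 CPM (median 1040) in WT Ly49C/I+ libraries. It fell by 0.35 on the log2 scale in WT Ly49C/I+ cells (SE 0.08, adjusted p = 0.014) and by 0.42 in KO Ly49C/I+ cells (SE 0.08, adjusted p = 0.0035), in which the groups did not overlap. In NKG2A+ cells its log2 fold change was -0.18 ± 0.08 (adjusted p = 0.15). Ddx21, an RNA helicase of the nucleolus, was not called, with log2 fold changes of -0.23, -0.14 and 0.07 in NKG2A+, WT Ly49C/I+ and KO Ly49C/I+ cells.

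The H/ACA snoRNPs turn uridine into pseudouridine in ribosomal RNA with the proteins dyskerin (Dkc1), Nhp2 and Gar1, all called in KO mice. Dkc1, the pseudouridine synthase, ranged from 136 to 219 CPM (median 189.5) in WT uneducated, from 98.9 to 179 CPM (median 134) in NKG2A+ and from 82.3 to 113.5 CPM (median 98.3) in WT Ly49C/I+ libraries. In KO mice it ranged from 150.1 to 180.1 CPM (median 155) in uneducated libraries and was 124, 78.7, 114, 85.6 and 82.0 CPM in Ly49C/I+ libraries. Every Ly49C/I+ library lay below every uneducated library of the same genotype, while NKG2A+ libraries overlapped the uneducated ones. The log2 fold change was -0.87 ± 0.12 (adjusted p = 0.00084) in WT Ly49C/I+ cells, -0.71 ± 0.11 (adjusted p = 0.00074) in KO Ly49C/I+ cells and -0.41 ± 0.13 (adjusted p = 0.031) in NKG2A+ cells. The calls in Ly49C/I+ cells held in all 15 and all 13 fits that left out a library. The call in NKG2A+ cells was lost without WT uneducated library 1, 3 or 4 or NKG2A+ library 5, 6, 7 or 9, with an adjusted p of at most 0.061, and without the libraries numbered 5 (0.077).

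Nhp2, which binds the guide RNA in the same particle, ranged from 154 to 266 CPM (median 208) in WT uneducated libraries and from 129.9 to 189 CPM (median 153) in NKG2A+ libraries. It fell by 0.47 on the log2 scale in NKG2A+ cells (SE 0.11, adjusted p = 0.0039), the smallest adjusted p of the 37 genes there, and held in all 18 fits that left out a library. In WT Ly49C/I+ cells the value was -0.34 ± 0.12 (adjusted p = 0.091). In KO mice it ranged from 169 to 251 CPM in uneducated libraries and was 131, 155, 137.5, 123 and 148 CPM in Ly49C/I+ libraries, without overlap, a fall of 0.55 on the log2 scale (SE 0.10, adjusted p = 0.0019). Gar1, the third protein of the particle, was lower in Ly49C/I+ cells of WT (-0.44 ± 0.13, adjusted p = 0.041) and KO mice (-0.55 ± 0.13, adjusted p = 0.0090). Its call in WT mice was kept in 6 of 15 fits that left out a library (adjusted p up to 0.11), those without uneducated library 5, 6, 7 or 9 or Ly49C/I+ library 2 or 4.

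Box C/D snoRNPs add methyl groups to ribosomal RNA, and the methyltransferase fibrillarin (Fbl) and its partner Nop58 were lower in KO Ly49C/I+ cells, with log2 fold changes of -0.42 and -0.65. The call of Nop58 was kept in 7 of 13 fits that left out a library. In WT cells neither was called. The log2 fold changes of Fbl were -0.26 in NKG2A+ and -0.27 in Ly49C/I+ cells. Nop56, the other core protein, had values of 0.04, 0.19 and 0.06 in the comparisons of NKG2A+, WT Ly49C/I+ and KO Ly49C/I+ cells.

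Among 7 factors of small subunit processing, none was called in WT mice, and their median log2 fold change was -0.13 in NKG2A+ and -0.15 in Ly49C/I+ cells. In KO Ly49C/I+ cells 2 were lower, Rrp12, an export factor of pre-ribosomes (-0.64 ± 0.16, adjusted p = 0.014), and Wdr43, a subunit of the processome (-0.34 ± 0.10, adjusted p = 0.028), and the median was -0.35. Wdr43 kept its call in 7 of 13 fits that left out a library. Utp20, Heatr1, Rrp9, Tsr1 and Nob1 were not called. Tsr1 shares 32.3% of its exon bases with Srr on the opposite strand, so its count is uncertain while the strand setting of the counting is unknown.

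Of the 11 large subunit factors, Rrp1b was lower in NKG2A+ cells (-0.57 ± 0.19, adjusted p = 0.045, kept in 6 of 18 fits that left out a library) and Nop16 in WT Ly49C/I+ cells. In KO Ly49C/I+ cells 6 were lower, namely Nop16, Nop2, Wdr55, Mrto4, Bop1 and Wdr12, with log2 fold changes between -0.68 and -0.29. The calls of Bop1 and Wdr12 were kept in 7 and 5 of 13 fits that left out a library. Bop1 and Wdr12 belong to the PeBoW complex, whose remaining member Pes1 had a value of -0.23 ± 0.10 (adjusted p = 0.14). Nop16, which acts in the assembly of the large subunit, ranged from 62.5 to 127 CPM (median 100.5) in WT uneducated and from 48.4 to 77.9 CPM (median 66.2) in WT Ly49C/I+ libraries. Its log2 fold change was -0.61 ± 0.14 (adjusted p = 0.014) in WT and -0.68 ± 0.12 (adjusted p = 0.0019) in KO Ly49C/I+ cells, and in KO mice all Ly49C/I+ libraries, at 68.7, 62.5, 61.95, 48.65 and 61.8 CPM, lay below the uneducated range of 75.4 to 119 CPM. In NKG2A+ cells its value was -0.36 ± 0.12 (adjusted p = 0.052). Hgh1, a chaperone of the elongation factor eEF2, was lower in KO Ly49C/I+ cells (-0.84 ± 0.24, adjusted p = 0.023), a call lost without KO Ly49C/I+ library 4 (adjusted p = 0.061).

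In polyamine synthesis only spermidine synthase was lower, with NKG2A as with Ly49C/I and in both genotypes. Srm (chr4:148591503-148594993, GRCm38, + strand) ranged from 135 to 328 CPM (median 239) in WT uneducated, from 91.2 to 169 CPM (median 146) in NKG2A+ and from 112 to 164 CPM (median 143) in WT Ly49C/I+ libraries. In KO mice it ranged from 160.4 to 264 CPM (median 196) in uneducated libraries and was 77.7, 100.9, 92.7, 91.95 and 90.4 CPM in Ly49C/I+ libraries. The KO groups stood far apart, whereas in WT mice the lowest uneducated libraries lay within the ranges of both educated groups. Srm fell by 0.66 on the log2 scale in NKG2A+ cells (SE 0.15, adjusted p = 0.0051), by 0.70 in WT Ly49C/I+ cells (SE 0.18, adjusted p = 0.023) and by 1.15 in KO Ly49C/I+ cells (SE 0.11, adjusted p = 3.1e-05), where its mean was 44.9% of that in uneducated cells. The call in NKG2A+ cells held in all 18 fits that left out a library, and that in WT Ly49C/I+ cells was lost without Ly49C/I+ library 7 (adjusted p = 0.069) or 8 (0.056).

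None of the other 3 enzymes was called lower. Odc1, ornithine decarboxylase, which makes putrescine, ranged from 264 to 521 CPM (median 436) in WT uneducated, from 347 to 485 CPM (median 438) in NKG2A+ and from 379 to 589 CPM (median 445) in WT Ly49C/I+ libraries. It ranged from 366 to 471 CPM (median 439.6) in KO uneducated libraries and was 407, 384, 369, 337 and 383 CPM in KO Ly49C/I+ libraries. The groups overlapped, and the log2 fold changes were 0.07 ± 0.10 (adjusted p = 0.70), 0.18 ± 0.12 (adjusted p = 0.39) and -0.20 ± 0.08 (adjusted p = 0.082) in NKG2A+, WT Ly49C/I+ and KO Ly49C/I+ cells. Without KO uneducated library 6 the last of these passed the threshold (-0.23, adjusted p = 0.037), and without the libraries numbered 5 the value in NKG2A+ cells was -0.0069. Amd1, which supplies the aminopropyl donor for spermidine and spermine, ranged from 21.8 to 34.8 CPM (median 25.3) in WT uneducated and from 31.7 to 59.7 CPM (median 37.9) in WT Ly49C/I+ libraries. It rose by 0.61 ± 0.17 on the log2 scale there (adjusted p = 0.028) and had the highest value of the 37 genes in both WT comparisons, with 0.25 ± 0.13 (adjusted p = 0.21) in NKG2A+ cells. The count of Amd1 is uncertain, because 78.1% of its 50-base stretches also occur in transcripts of other genes, Amd2 among them, and the call was lost without WT uneducated library 1, 3 or 4 or Ly49C/I+ library 5 or 7 (adjusted p up to 0.085). Sms, spermine synthase, had values of 0.06, 0.17 and 0.18 and was not called.

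**Figure D3:**
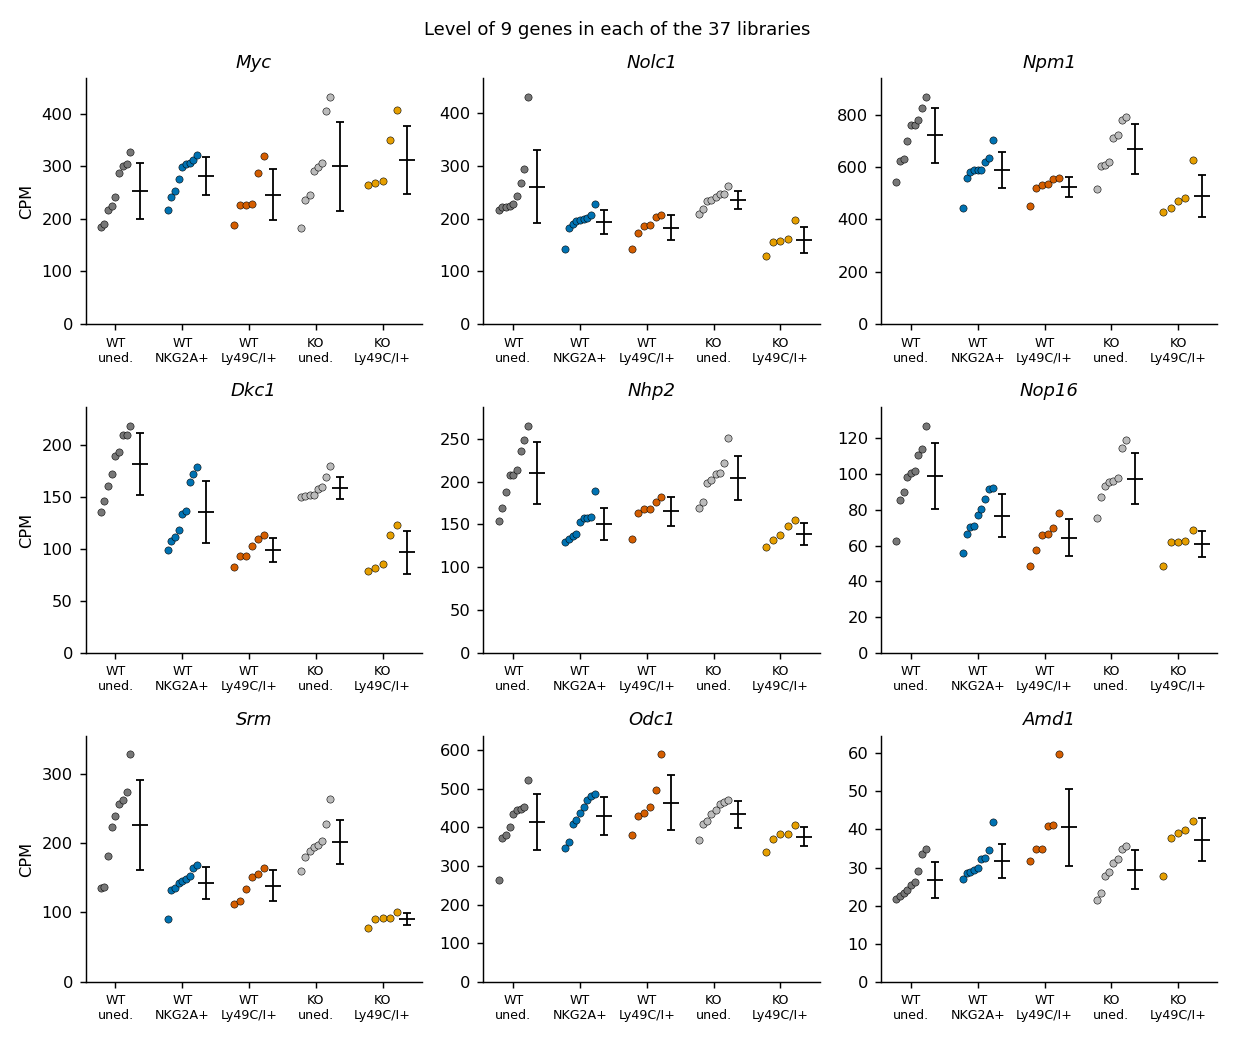
CPM of Myc, Nolc1, Npm1, Dkc1, Nhp2, Nop16, Srm, Odc1 and Amd1 in each library by group (points, sorted by value within a group; bars, mean ± SD; n = 9, 9, 6, 8 and 5; every axis starts at 0). Srm lies between 77.7 and 100.9 CPM in KO Ly49C/I+ libraries, below all uneducated libraries, whereas the Myc and Odc1 groups overlap.

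Between the educated groups of WT mice, Ppan, a large subunit factor, was the 1 member called, lower with NKG2A than with Ly49C/I, in a comparison where 1.42% of 9308 genes were lower and 1.31% higher. Ppan ranged from 65.4 to 92.0 CPM (median 75.8) in NKG2A+ and from 90.0 to 113 CPM (median 99.7) in Ly49C/I+ libraries, a log2 difference of -0.40 ± 0.10 (adjusted p = 0.030), and it was not called against uneducated cells in either group. The call was lost without any of the NKG2A+ libraries 1, 2, 4 and 8 or the Ly49C/I+ libraries 1, 5, 7 and 8, with an adjusted p of at most 0.065. For Dkc1 the same log2 difference was 0.44 ± 0.14 (adjusted p = 0.088), which passed the threshold with DESeq2 (adjusted p = 0.035).

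None of the genes was called between KO and WT mice. In uneducated cells the edgeR quasi-likelihood test called 0 of 9288 genes (0%), and DESeq2 called 0 of the 37. An unadjusted p under 0.05 in the quasi-likelihood test was held by 4 of the 37 (10.8%), against 6.66% of all genes tested. In Ly49C/I+ cells that test called 0 of 9344 genes (0%), and 9 of the 37 (24.3%) had an unadjusted p under 0.05, against 10.7% of all genes tested. DESeq2 and edgeR's likelihood ratio test called 1 of the 37, Srm. Every KO Ly49C/I+ library lay below every WT Ly49C/I+ library in Srm, with a log2 difference of -0.62 ± 0.13 (adjusted p = 0.14 with the quasi-likelihood test, 0.0021 with DESeq2). How many of all genes show such a gap between genotypes was not counted, so no effect of genotype on Srm is drawn from it. The step from uneducated to Ly49C/I+ cells was not shown to differ between genotypes either. The quasi-likelihood test of the difference called 0 of 9322 genes (0%), and DESeq2 called 0 of the 37. In the former, 5 of the 37 (13.5%) had an unadjusted p under 0.05, against 4.44% of all genes tested. The lowest differences were those of Hgh1 (-0.94 ± 0.27) and Wdr55 (-0.83 ± 0.21) and the highest that of Utp20 (0.90 ± 0.49), all named after their values were seen and all with an adjusted p of 0.998. The larger count in KO mice, 18 against 9 in WT mice, is therefore not a tested difference.

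Further genes of the same processes were listed by function, also with earlier results of these data known. Of 135 further ribosome biogenesis genes tested in each comparison, 8 were lower and 1 higher in NKG2A+ cells, 5 were lower and 2 higher in WT Ly49C/I+ cells, and 27 were lower and 3 higher in KO Ly49C/I+ cells, with median log2 fold changes of -0.10, -0.13 and -0.21. Of all genes tested 7.56%, 5.05% and 8.99% were lower and 7.47%, 4.25% and 7.34% higher in these comparisons. In WT mice the shares of lower genes among the 135 were near those of all genes tested. The genes named next are called genes with the smallest adjusted p in each part of this list and do not stand for a part as a whole. Among the 20 further genes of RNA polymerase I transcription, Polr2l and Polr2f, small subunits shared by all nuclear RNA polymerases, were lower in NKG2A+ cells (-0.74 and -0.30), and Taf1d, of the promoter selectivity factor, was higher in WT Ly49C/I+ cells (0.54 ± 0.15, adjusted p = 0.030). Among 63 snoRNP and small subunit genes, Rcl1 was lower in NKG2A+ (-0.58) and Noc4l in WT Ly49C/I+ cells (-0.65), while Riok1, a kinase of late small subunit maturation, was higher in NKG2A+ (0.36 ± 0.11, adjusted p = 0.032), WT Ly49C/I+ (0.47 ± 0.08, adjusted p = 0.0032) and KO Ly49C/I+ cells (0.42 ± 0.13, adjusted p = 0.033). Among 52 large subunit genes, Ebna1bp2 (-0.35) and Wdr18 (-0.44) were lower in NKG2A+ and Lyar (-0.57) in WT Ly49C/I+ cells.

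Genes that MYC is known to drive outside the nucleolus were examined as well, in a list likewise drawn up with earlier results of these data known. Of 36 such genes of nucleotide, one-carbon and amino acid metabolism, protein folding and translation, 12 were lower and 1 higher in NKG2A+ cells, 16 lower and 1 higher in WT Ly49C/I+ cells, and 26 lower and 2 higher in KO Ly49C/I+ cells, with medians of -0.29, -0.39 and -0.49. Of all genes tested 7.56%, 5.05% and 8.99% were lower in these comparisons. In NKG2A+ cells the smallest adjusted p values were those of the mitochondrial chaperonin Hspe1 (-0.51 ± 0.09), the mitochondrial protein C1qbp (-0.51 ± 0.10) and the CTP synthase Ctps (-0.50 ± 0.10). Of the 16 tested genes of the MYC network, Mxd1, whose protein competes with MYC for MAX, was higher in NKG2A+ cells (442 against 194 CPM, log2 fold change 1.20 ± 0.13, adjusted p = 2.8e-06), in WT Ly49C/I+ cells (333 CPM, 0.79 ± 0.15, adjusted p = 0.0038) and in KO Ly49C/I+ cells (411 against 270 CPM, 0.61 ± 0.17, adjusted p = 0.019). The kinase genes Pim2 and Pim3 were higher in NKG2A+ (0.89 and 0.33) and WT Ly49C/I+ cells (0.56 and 0.49). Mxd1, Pim2 and Pim3 are named as called genes with the smallest adjusted p of this list and do not stand for the network as a whole. Any link between Mxd1 and the lower MYC-linked genes was not tested. Max, named here after its values were seen, was lower in KO Ly49C/I+ cells (25.5 against 55.5 CPM, -1.12 ± 0.26, adjusted p = 0.0090), with -0.85 ± 0.30 (adjusted p = 0.078) in WT Ly49C/I+ and 0.14 ± 0.23 (adjusted p = 0.75) in NKG2A+ cells.

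In polyamine use, 13 of 21 further genes were tested in each WT comparison and 14 in KO mice. Of these 2 were lower and 1 higher in NKG2A+, 1 lower and 2 higher in WT Ly49C/I+, and 3 lower and 2 higher in KO Ly49C/I+ cells. The shares of all genes tested were 7.56% lower and 7.47% higher, 5.05% and 4.25%, and 8.99% and 7.34%, and with so few genes 1 call makes up much of a share, so the counts are not read as a result about polyamine genes. Slc3a2, higher in both Ly49C/I+ groups, also stands in the list of MYC-linked growth genes. Eif5a, the protein that carries hypusine, was lower in NKG2A+ (-0.35 ± 0.07, adjusted p = 0.0027), WT Ly49C/I+ (-0.37 ± 0.09, adjusted p = 0.019) and KO Ly49C/I+ cells (-0.47 ± 0.07, adjusted p = 0.00044). Sat1, which acetylates spermidine and spermine for export, was lower in NKG2A+ cells (-0.52 ± 0.10, adjusted p = 0.00096). Atp13a2, a lysosomal polyamine exporter, was higher in NKG2A+ (0.82 ± 0.24, adjusted p = 0.027) and KO Ly49C/I+ cells (1.00 ± 0.26, adjusted p = 0.016).

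**Figure D4:**
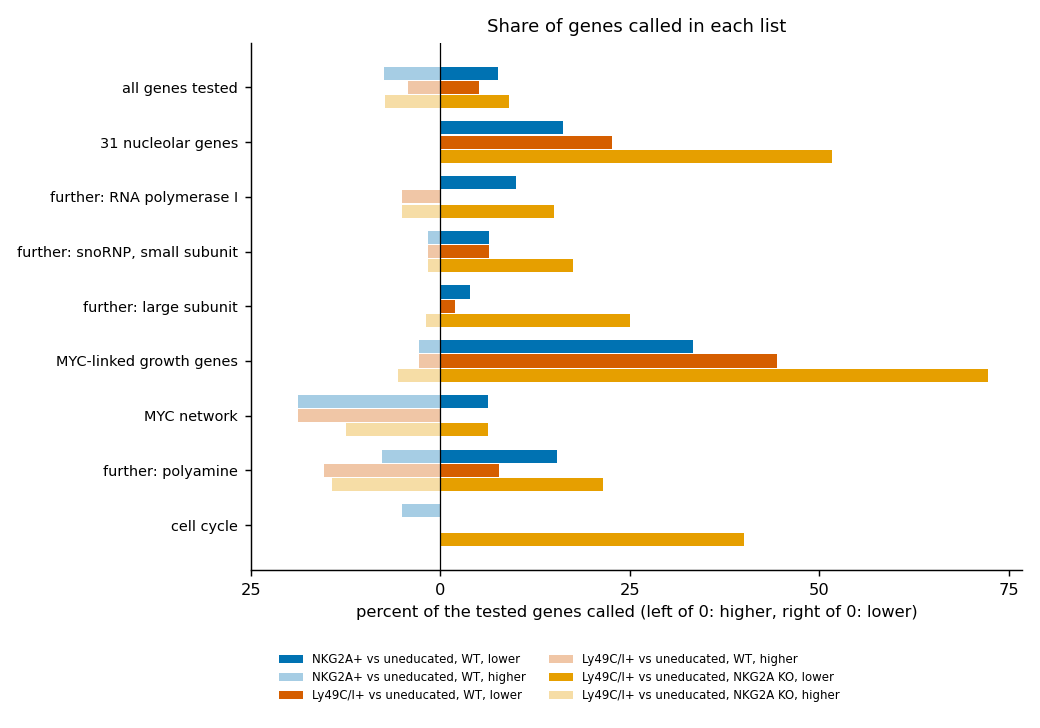
Share of the tested genes of each list called lower (right of 0) or higher (left of 0, paler) at an adjusted p under 0.05, in NKG2A+ (blue) and Ly49C/I+ (dark orange) against uneducated WT cells and in Ly49C/I+ against uneducated KO cells (light orange). The KO bar reaches furthest to the right in the 36 MYC-linked growth genes (26 lower) and the 31 nucleolar genes (16 lower), and all genes tested are shown at the top for comparison.

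Other properties of the libraries moved with the groups. Of 20 cell cycle markers, none was lower and 1, Top2a, was higher in NKG2A+ cells, none was called in WT Ly49C/I+ cells, and 8 were lower in KO Ly49C/I+ cells, where 8.99% of all genes were lower. The summed level of the markers ranged from 3078 to 3792 CPM in KO uneducated and from 2359 to 3326 CPM in KO Ly49C/I+ libraries. Of 17 dissociation and stress genes, 5, 3 and 4 were higher in NKG2A+, WT Ly49C/I+ and KO Ly49C/I+ cells, where 7.47%, 4.25% and 7.34% of all genes were higher, and their summed level ranged from 6835 to 10498 CPM in WT uneducated and from 9822 to 12913 CPM in WT Ly49C/I+ libraries. The share of reads outside annotated genes was 4.16 to 6.83% in WT Ly49C/I+ and 3.94 to 5.26% in KO Ly49C/I+ libraries, against 2.90 to 4.47% in WT uneducated and 2.69 to 5.67% in KO uneducated libraries. Among markers of other cells, 4 of 7 tested T cell genes, Vim and the globin genes Hbb-bs and Hbb-bt were higher and Ighm, H2-Ab1, Pecam1, Epcam and Cdh1 lower in NKG2A+ cells, and Col1a1 was at most 5.9 CPM in every library and its median was 0 in every group. In Ly49C/I+ cells of WT mice Trbc1 and Trbc2 were higher and H2-Ab1, Pecam1 and Epcam lower, and in those of KO mice Trbc1 and Itgax were higher and H2-Ab1 and Epcam lower. The summed level of 11 T cell markers ranged from 555 to 755 CPM in WT uneducated, from 732 to 1034 CPM in NKG2A+ and from 784 to 987 CPM in WT Ly49C/I+ libraries, and from 652 to 841 CPM in KO uneducated and 839 to 911 CPM in KO Ly49C/I+ libraries. Cd3e was at most 32.9 CPM in any library, so the T cell sum came mostly from other genes of its list and is not read as a level of T cells. The summed level of 6 endothelial markers ranged from 207 to 347 CPM in WT uneducated, from 121 to 205 CPM in NKG2A+ and from 140.0 to 218 CPM in WT Ly49C/I+ libraries, and from 178 to 347 CPM in KO uneducated and 128 to 198 CPM in KO Ly49C/I+ libraries. Nearly all of this sum was 1 gene, Pecam1, at 207 to 346 CPM in WT uneducated and 121 to 205 CPM in NKG2A+ libraries, so it does not show a shift of endothelial markers as a set. The summed level of 5 red blood cell markers ranged from 180.0 to 1256 CPM in WT uneducated, from 668 to 2535 CPM in NKG2A+ and from 766 to 2494 CPM in WT Ly49C/I+ libraries, and from 213 to 1117 CPM in KO uneducated and 399 to 1595 CPM in KO Ly49C/I+ libraries. The part of these differences in the results was not tested.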

How the data were processed

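The authors trimmed reads with Trim Galore 0.5.0 and mapped them with STAR 2.7.1 to GRCm38, per the labels and the methods, after SMART-Seq v4 cDNA amplification and Nextera XT library preparation. They deposited raw counts per Ensembl gene for each library. For the counting program and its strand setting, the sources used here give nothing. Lines that name no gene did not enter library sizes or tests, namely reads outside genes (2.69 to 6.83% of the reads), ambiguous reads (4.04 to 4.60%) and reads with several alignments (11.3 to 13.8%).

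Counts were tested with edgeR 4.0.16 (R 4.3.3) by the quasi-likelihood F test with TMM factors, over all genes at 5 CPM or more in a share of at least 0.5 of the libraries compared, as the authors filtered, with Benjamini-Hochberg adjustment over all genes tested and a threshold of 0.05. Each comparison used its own groups alone. The fits were tested on simulated data. Alternatives were RLE factors, DESeq2 1.42.0, the likelihood ratio test of edgeR, no filter, offsets for GC content and exon length, the replicate number as a block (also with those offsets), all groups in 1 fit, leaving out the libraries numbered 5 and leaving out each library. CPM in the text are TMM-scaled over the 37 libraries.

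The members and lists were chosen with earlier results of these data known. Full statistics are given for Myc, Odc1, the 4 called members with the smallest adjusted p in each comparison and the members with the lowest and highest fold change in the WT comparisons, and up to 3 genes of each further list. Nothing says that libraries came from separate mice, so p-values measure the spread between libraries. Counts limit precision for counting error only, with at least 54 reads for any member in any library. Gene positions, exon lengths and shared 50-base stretches came from GENCODE M21 (GRCm38), promoter windows from RefSeq (GRCm38.p6). The study names an Ensembl release that belongs to a later build than GRCm38, so positions come from GENCODE and not from the deposited files, which hold none. Library numbers follow the sample descriptions for WT Ly49C/I+ and the title for WT uneducated library 5, whose description repeats that of library 4.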

Additional observations from a re-analysis of the deposited data

Results flagged for a closer look

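Of 65 groups of 5 to 9 libraries, taken over the 12 members with full statistics and the summed level of all 37 genes, 9 held a library far from the others by Dixon's criterion, which chance gives in about 1 of 20 groups. Polr1a was at 89.7 CPM in WT uneducated library 5 and at 9.68 CPM in WT Ly49C/I+ library 8. Nolc1 was at 431 CPM in WT uneducated library 5, the library with the highest mitochondrial share. Npm1 was at 449.6 CPM in WT Ly49C/I+ library 7, below the other libraries of its group, and at 626 CPM in KO Ly49C/I+ library 8, above them. Nhp2 was at 189 CPM in WT NKG2A+ library 3, and Amd1 at 59.7 CPM in WT Ly49C/I+ library 5. WT NKG2A+ library 6 was lowest in Srm, at 91.2 CPM, and in the summed level of the 37 genes, at 4472 CPM.

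Ppan was called between NKG2A+ and Ly49C/I+ cells of WT mice, with a log2 difference of -0.40 (adjusted p = 0.030, edgeR quasi-likelihood test). It was called against uneducated cells in neither group, so differing effects of education on Ppan are not drawn from it. The call held in only 7 of 15 fits that left out a library and in only 3 of 8 other settings, with an adjusted p of up to 0.18. It was lost with no filter, with GC and length offsets, with the replicate block and with all groups fitted together.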

How the results depend on the processing

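In NKG2A+ against uneducated cells, 6 members were called. The count was 2 with no filter, 13 with all groups in 1 fit and 2 to 11 when single libraries were left out. In Ly49C/I+ against uneducated WT cells, 9 were called, 4 with no filter and 4 to 10 without single libraries. In NKG2A+ against Ly49C/I+ cells, 1 was called, 2 with the likelihood ratio test or DESeq2, 0 with no filter or with GC and length offsets, and 0 to 1 without single libraries. In Ly49C/I+ against uneducated KO cells, 18 were called, and 14 to 19 without single libraries. Of the 18, 7 were called in all 8 other settings, which include the replicate block described below. Between genotypes in Ly49C/I+ cells, 0 were called, and 1 with the likelihood ratio test or DESeq2. The cause of these shifts was not tested. Signs turned for Myc and Odc1, which were not called. The log2 fold change of Myc in WT Ly49C/I+ cells was 0.011 with GC and length offsets, 0.037 without the libraries numbered 5 and -0.11 to 0.037 without single libraries, and in KO Ly49C/I+ cells -0.052 to 0.16 without single libraries. That of Odc1 in NKG2A+ cells was -0.0069 without the libraries numbered 5.

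Replicate numbers are shared between groups, but nothing says that they mark a mouse or a day. Over pairs with the same number, correlations of deviations from the group means ran from -0.0041 to 0.34 (NKG2A+ and uneducated, 9 pairs), 0.085 to 0.27 (WT Ly49C/I+ and uneducated, 6), 0.058 to 0.15 (NKG2A+ and Ly49C/I+, 6), 0.012 to 0.36 (KO Ly49C/I+ and uneducated, 5), -0.34 to 0.38 (uneducated KO and WT, 8) and -0.046 to 0.024 (Ly49C/I+ KO and WT, 4), and 3, 5, 5, 4, 3 and 1 of these pairs correlated best with their own number. Not every pair was over 0.1, so the block was kept as an alternative. That most pairs fit their own number best in both comparisons of Ly49C/I+ with uneducated cells and in that of NKG2A+ with Ly49C/I+ cells is a hint of pairing from the data, not from the design. With the replicate block, 7, 10, 1 and 12 members were called in the NKG2A+, WT Ly49C/I+, NKG2A+ against Ly49C/I+ and KO Ly49C/I+ comparisons, and 0 between genotypes. The block ended the calls of Gar1 (adjusted p = 0.059) and Amd1 (0.088) in WT Ly49C/I+ cells, of Ppan (0.074), where the 1 call was Dkc1 (0.030), and of Gar1 (0.059), Fbl, Mrto4, Bop1, Wdr43, Nop58 and Wdr12 (0.062 to 0.16) in KO Ly49C/I+ cells. In KO mice, calls over all genes went from 1519 to 759 with the block. With the block and GC and length offsets together, 0 were called in NKG2A+ against Ly49C/I+ cells and 9 in KO Ly49C/I+ cells, and Myc was at 0.039 in WT and -0.039 in KO Ly49C/I+ cells, with -0.15 in KO cells under the block alone.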
